A study of Mus musculus with 18 samples.

Results

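The 10 genes described here encode the transcription factor NRF2 (Nfe2l2), its inhibitor (Keap1) and enzymes that make, recycle or use glutathione or carry out related redox reactions (Gclc, Gclm, Gss, Gsr, Gpx1, Txnrd1, Srxn1 and Nqo1). They were taken by name from the 14451 genes of the normalized table, and all 10 were in the table and among the 14449 genes tested. RNA sequencing of polyA RNA was carried out on 18 whole livers of WT male mice killed at 8 to 9 weeks of age, with no strain given in the labels. Mice lived under 12 h of light and 12 h of dark, and 3 livers were sequenced at each of 6 zeitgeber times (ZT, hours after lights on), namely ZT1, ZT5 and ZT9 in the light and ZT13, ZT17 and ZT21 in the dark. Of the 5 mice of each time group, the 3 with the best RNA were sequenced, so RNA quality took part in the choice of animals, and no mouse was followed over time.

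NRF2 is held in the cytoplasm by KEAP1, which leads it to ubiquitination and degradation. Oxidants and electrophiles modify cysteines of KEAP1, after which NRF2 builds up, enters the nucleus with small MAF proteins and binds antioxidant response elements, a step that BACH1 can block. The amount of Nfe2l2 mRNA is therefore only a part of what sets NRF2 activity, and protein was not measured here. Glutathione is made from glutamate, cysteine and glycine in 2 steps, by glutamate-cysteine ligase, which consists of a catalytic subunit (Gclc) and a modifier subunit (Gclm), and then by glutathione synthetase (Gss). Glutathione peroxidases oxidize glutathione while they reduce peroxides, and glutathione reductase (Gsr) returns it to the reduced form at the cost of NADPH. The liver makes large amounts of glutathione, uses it in the conjugation of foreign compounds and exports it to blood and bile.

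Letters of the antioxidant response element core were found near the RefSeq start of 3 genes, and they are shown because this element is the one that NRF2 and the small MAF proteins bind. The windows were the 250 bases before each RefSeq start in GRCm38.p6. RefSeq windows were matched for 8 of the 10 genes, 10 windows in all, and not for Gclc and Gsr. The core was searched on both strands as TGACNNNGC, the E-box as CACGTG and the D-box as TTATGTAA or TTACATAA. Each line below gives the match in capitals with 10 bases on either side, read 5′ to 3′ on the strand of the gene.
Nfe2l2, chr2:75704885-75704913, minus strand, match 240 to 232 bases before the start: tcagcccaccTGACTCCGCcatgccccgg
Gclm, chr3:122245413-122245441, plus strand, match 134 to 126 bases before the start: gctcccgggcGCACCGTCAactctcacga
Txnrd1, chr10:82859104-82859132, plus strand, match 92 to 84 bases before the start, in the window numbered 2 of 3: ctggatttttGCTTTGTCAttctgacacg
The match in Nfe2l2 reads along the gene's strand, and those in Gclm and Txnrd1 read on the opposite strand. Of all 13198 windows matched to genes of the table, 11.7% held the core, 8.04% an E-box and 0.508% a D-box, and counted by gene 13.9% of 10326 genes held the core in at least 1 window, against 3 of the 8 genes here, while no window of the 8 genes held an E-box or a D-box. A match is a run of letters and not a bound site. Other forms of the element were not searched, so a window without a match may hold one. Of the 250 bases of the window, 144 in Nfe2l2 and 79 in window 2 of Txnrd1 lay in annotated exons. For Gclm, the gene that differed between time points but had no called 24 h rhythm, the whole window (chr3:122245307-122245556, plus strand, 78.4% G and C, no base of it in an annotated exon) was:
Gclm window: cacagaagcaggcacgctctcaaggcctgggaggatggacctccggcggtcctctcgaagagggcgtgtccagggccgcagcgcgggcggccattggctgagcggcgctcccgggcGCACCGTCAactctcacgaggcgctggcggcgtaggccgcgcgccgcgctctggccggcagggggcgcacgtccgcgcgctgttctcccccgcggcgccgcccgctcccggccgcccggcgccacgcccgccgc

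The values are estimated read counts plus 0.5 reads, scaled by the authors to about 1000000 reads per liver, and are called normalized values. Depth was 10268168 to 23242842 estimated reads per liver. In a check with 6 clock genes, 17 of 18 livers were nearest to the livers of their own time, and ZT5 replicate 3, which was also the deepest library, was nearest to ZT9. ZT13 replicate 1 was the lowest of its 3 livers for 8 of the 10 genes, with a median deviation of -0.23 on the log2 scale from the mean of its time point. ZT17 replicate 2 was the lowest of its 3 livers for 9 of the 10 genes, with a smaller median deviation of -0.076. The rhythms called for the 10 genes are given below with and without ZT5 replicate 3 and ZT13 replicate 1. Without ZT17 replicate 2 the same 3 genes were called, with amplitudes of 0.52 for Gclc, 0.27 for Gsr and 0.21 for Gss (limma adjusted p = 0.00154, 5.61e-05 and 0.0047). All 8 hepatocyte markers were in the table, with summed values of 84631 to 117012 per liver, against 87.7 to 236 for 6 Kupffer cell markers, 107 to 246 for 6 endothelial markers, 159 to 270.3 for 6 stellate cell markers, 31.5 to 57.5 for 5 cholangiocyte markers and 108 to 674 for 5 erythroid markers. The neutrophil and lymphocyte sums, each over 3 markers, stayed between 0.893 and 3.85. In whole liver, fewer cells of a type and less RNA per cell cannot be told apart.

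Compared per kilobase of annotated exon, Gpx1, the main glutathione peroxidase of the cytosol, had the highest mean level over the 18 livers, with a normalized value of 869 per kb. Gclc followed with 83.7 per kb, and its partner Gclm had 33.7 per kb. Gsr (22.1 per kb), Nfe2l2 (18.1 per kb) and Txnrd1 (17.7 per kb) formed a middle range. Srxn1 (10.4 per kb), Gss (10.04 per kb) and Keap1 (9.50 per kb) were lower, and Nqo1 was the lowest with 2.61 per kb. The length used was that of all annotated exons of a gene together, which can exceed that of its mRNA, so the order is approximate.

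The first question of the design was which of these mRNAs follow the day. A 24 h rhythm, tested with limma on log2(value + 1) with a cosine and a sine of 24 h and adjusted by Benjamini–Hochberg over all genes, was called for 3 of the 10 genes, Gclc, Gsr and Gss. The same test called 36.8% of all genes tested, so the share among the 10 was close to the background. JTK, a rank test against cosine orders of 20, 24 and 28 h, called 2 of the 10 genes, Gclc (q = 0.0349) and Gsr (q = 0.0104), against 14.1% of all genes. Any difference among the 6 time points was called by limma for 4 of the 10 genes, Gclc, Gsr, Gss and Gclm, against 29.2% of all genes. A 12 h term, which would give a second daily peak, was called for 0 of the 10 genes against 1.22% of all genes, and 0 of the 10 had an unadjusted p below 0.05 in this limma test. The share of all genes at that unadjusted threshold was not counted. The median 24 h amplitude was 0.113 on the log2 scale over the 10 genes and 0.162 over all genes tested.

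**Figure D1:**
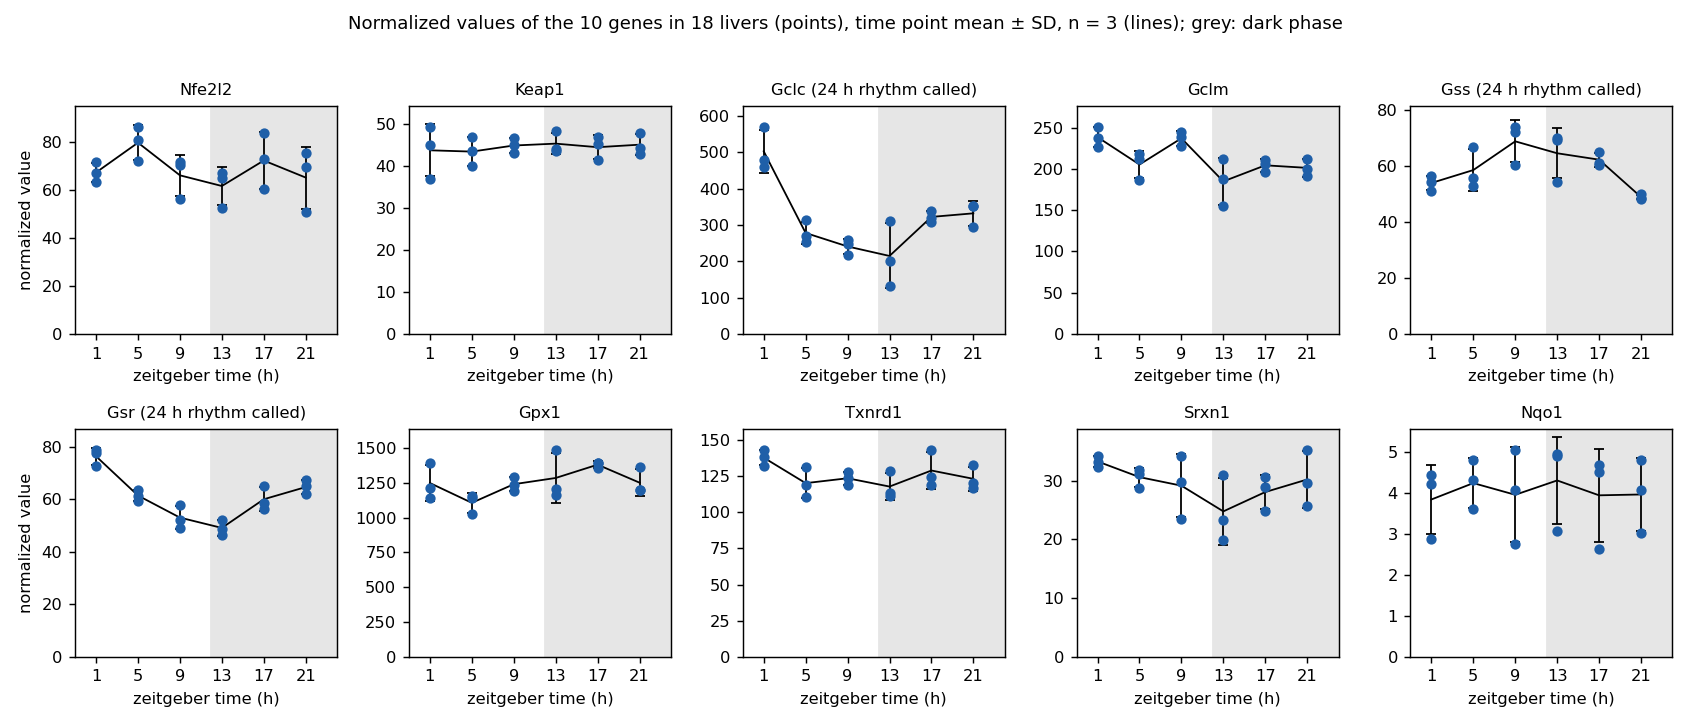
Normalized value (vertical axis, each panel from 0) against zeitgeber time in hours for the 10 genes, with 1 point per liver and a line through the mean ± SD of the 3 livers. Gclc and Gsr are highest at ZT1 and lowest at ZT13, Gss is highest at ZT9 and lowest at ZT21, and the time means of Keap1 stay between 43.5 and 45.4.

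The regulators themselves had no called rhythm. Nfe2l2 (ENSMUSG00000015839, chromosome 2 from 75675513 to 75704641 of GRCm38, minus strand) had normalized values of 63.2, 67.2 and 71.5 at ZT1, of 72.0, 80.8 and 86.2 at ZT5 and of 56.2, 71.8 and 70.3 at ZT9. In the dark it had 52.5, 67.2 and 65.2 at ZT13, 72.7, 60.3 and 83.8 at ZT17 and 50.6, 75.3 and 69.6 at ZT21. The ZT5 livers were the highest group and the ZT13 livers the lowest, and these groups did not overlap, while each shared its range with other time points. The fitted amplitude of Nfe2l2 was 0.08 ± 0.064 (SE) on the log2 scale, with limma adjusted p = 0.56 for the 24 h rhythm and 0.32 for any difference among time points. Single livers moved this amplitude, to 0.05 without ZT5 replicate 3, 0.06 without ZT13 replicate 1 and 0.13 without ZT17 replicate 3, and the rhythm was called in 0 of the 18 limma fits without 1 liver, in which the adjusted p was 0.23 to 0.81. The 95% interval of its amplitude reached up to 0.22, which is a peak to trough ratio of 1.35.

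Keap1 (ENSMUSG00000003308, chromosome 9 from 21229730 to 21239361, minus strand), the adaptor through which NRF2 is ubiquitinated, had a fitted amplitude of 0.027 ± 0.037 (SE), which ran from 0.0133 without ZT1 replicate 1 to 0.0487 without ZT1 replicate 3. Its time means ranged from 43.5 ± 3.44 (SD, n = 3) at ZT5 to 45.4 ± 2.55 (SD, n = 3) at ZT13, and its highest and lowest time points overlapped. The limma adjusted p of the 24 h rhythm was 0.83, and the upper limit of the 95% interval of the amplitude, 0.10, allows a peak to trough ratio of up to 1.16. Keap1 shares 510 exon bases with the opposite-strand gene Gm16754, whose mean value was 1.12 against 44.6 for Keap1.

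Among the genes of glutathione synthesis, Gclc (ENSMUSG00000032350, chromosome 9 from 77754535 to 77794485, plus strand), which encodes the catalytic subunit of the rate-limiting ligase, had the largest daily amplitude of the 10. Its normalized values were 459, 569.7 and 479 at ZT1, 269, 313 and 252 at ZT5 and 247, 258 and 217 at ZT9. In the dark they were 133, 310.3 and 201 at ZT13, 339.5, 308 and 319 at ZT17 and 293, 352 and 351 at ZT21. Every liver at ZT1 was above every liver at the other 5 times, and the lowest value of all was that of ZT13 replicate 1. In the order of the means (ZT1, ZT21, ZT17, ZT5, ZT9, ZT13), the ranges of neighbours overlapped except for ZT1 and ZT21.

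The fitted rhythm of Gclc had an amplitude of 0.51 ± 0.095 (SE), a peak to trough ratio of 2.04 and a peak at ZT23.51 ± 0.70 h (SE), with limma adjusted p = 0.00099. The R-squared of the cosine was 0.60. The mean was 332 ± 33.6 (SD, n = 3) at ZT21 and 503 ± 59.0 (SD, n = 3) at ZT1, a difference of 0.60 ± 0.19 (SE) on the log2 scale that was not called (limma adjusted p = 0.31). From ZT1 to ZT5 Gclc fell by 0.85 ± 0.19 (SE) on the log2 scale, with limma adjusted p = 0.0113. Without ZT13 replicate 1 the amplitude was 0.43 (limma adjusted p = 0.00171) and without ZT5 replicate 3 it was 0.52 (limma adjusted p = 0.000994). The fall from ZT1 to ZT5 was no longer called without ZT5 replicate 3 (limma adjusted p = 0.0583) or without ZT1 replicate 2 (limma adjusted p = 0.0711). The JTK call had a best order of 20 h and held in 4 of the 18 runs that each left out 1 liver, in which q ranged from 0.0221 to 0.0743.

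Gclm (ENSMUSG00000028124, chromosome 3 from 122245557 to 122270732, plus strand), whose product raises the affinity of the ligase for glutamate, also had its highest mean at ZT1 and its lowest at ZT13, but was nearly as high at ZT9. Its normalized values were 238, 251 and 226 at ZT1, 186, 218 and 211 at ZT5 and 239, 245 and 227 at ZT9. They were 155, 212 and 187 at ZT13, 211, 196 and 206 at ZT17 and 191, 212 and 200.3 at ZT21. The livers at ZT1 and at ZT9 were all above those of the other 4 times, and ZT1 and ZT9 overlapped each other. The 24 h fit gave an amplitude of 0.11 ± 0.049 (SE) with limma adjusted p = 0.18, whereas the limma test of any difference among time points gave 0.0221.

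From ZT9 to ZT13 Gclm fell by 0.37 ± 0.093 (SE) on the log2 scale, with limma adjusted p = 0.0155. This call was lost without ZT13 replicate 1 (limma adjusted p = 0.0862) and without ZT9 replicate 2 (limma adjusted p = 0.0628). The test of any difference was no longer called without ZT1 replicate 2 (limma adjusted p = 0.0562) or with one prior variance for all genes (limma adjusted p = 0.0632). The highs of Gclm at ZT1 and ZT9 are 8 h apart, a spacing that neither the 24 h nor the 12 h term describes. Gclm shares 296 exon bases with the opposite-strand gene Gm17494, whose mean value was 1.53 against 212 for Gclm.

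The 2 subunits of the ligase both had their highest mean at ZT1 and their lowest at ZT13, but their ratio within the same livers varied between times. The ratio of the Gclc value to the Gclm value was 1.93, 2.27 and 2.12 in the livers at ZT1 and 1.03, 1.05 and 0.958 at ZT9. By time point the mean ratio was 2.11 ± 0.172 (SD, n = 3) at ZT1, 1.36 ± 0.142 at ZT5, 1.02 ± 0.0511 at ZT9, 1.13 ± 0.308 at ZT13, 1.58 ± 0.0304 at ZT17 and 1.65 ± 0.110 at ZT21. The livers at ZT1 were all above those of every other time, and the widest spread was at ZT13, where the 3 livers had 0.857, 1.46 and 1.07. The ratio is of values not divided by length and is given as a description, with no test.

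**Figure D2:**
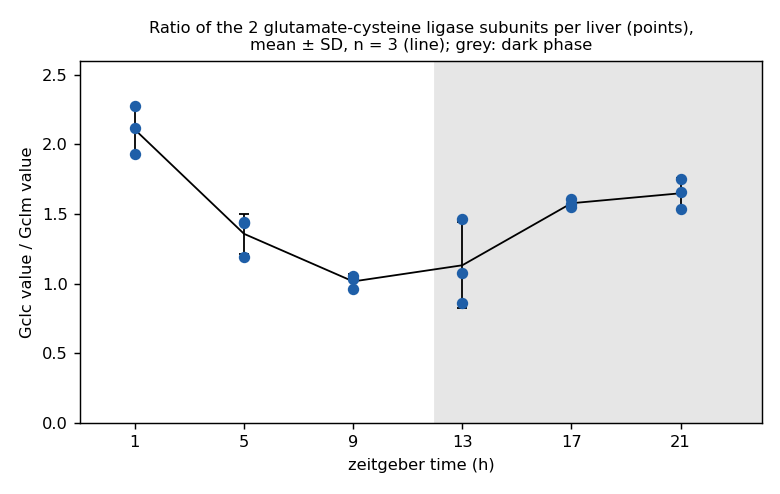
Ratio of the normalized value of Gclc to that of Gclm (vertical axis, from 0) against zeitgeber time in hours, with 1 point per liver and a line through the mean ± SD of 3 livers. The ratio is highest at ZT1 (1.93 to 2.27) and lowest in mean at ZT9 (0.958 to 1.05).

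Gss (ENSMUSG00000027610, chromosome 2 from 155563181 to 155592810, minus strand), which adds glycine in the last step of glutathione synthesis, had its peak on the other side of the day from Gclc. Its normalized values were 54.1, 51.1 and 56.2 at ZT1, 66.8, 52.7 and 55.8 at ZT5 and 60.1, 72.1 and 73.8 at ZT9. They were 54.1, 69.1 and 70.0 at ZT13, 65.0, 60.4 and 61.1 at ZT17 and 48.1, 48.6 and 49.8 at ZT21. Every liver at ZT21 was below every liver of the other times, and at ZT13 replicate 1 stood apart as the low value. In the order of the means (ZT9, ZT13, ZT17, ZT5, ZT1, ZT21) only ZT1 and ZT21, as neighbours, did not overlap.

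The fitted peak of Gss was at ZT10.87 ± 0.81 h (SE), with an amplitude of 0.21 ± 0.044 (SE), a peak to trough ratio of 1.34 and limma adjusted p = 0.00324. Without ZT13 replicate 1 the amplitude was 0.24 (limma adjusted p = 0.000378), and without ZT5 replicate 3 it was 0.21 (limma adjusted p = 0.00418). JTK did not call Gss, with q = 0.0844, and no step between neighbouring times was called, the fall of 0.34 ± 0.10 (SE) on the log2 scale from ZT17 to ZT21 having limma adjusted p = 0.10. The 95% interval of the peak time of Gss, ZT9.19 to ZT12.55, did not overlap that of Gclc, which ran from ZT22.04 to ZT24.97, past the next lights on.

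Gss shares 395 exon bases, 6.68% of its annotated exon bases, with Acss2 on the opposite strand, a gene of acetate use with a mean value of 275 against 59.4 for Gss. Acss2 had a called rhythm with an amplitude of 0.52 ± 0.092 (SE) and a peak at ZT1.58 (limma adjusted p = 0.000704), on the other side of the day from that of Gss. The sources used here do not say whether strand was used in counting, so reads of the shared bases cannot be told apart. The summed Kupffer cell markers had the same highest and lowest times as Gss, with a mean of 206 at ZT9 and of 120 at ZT21. Elsewhere the courses differed. Kupffer sums were 236, 174 and 194 at ZT5 and 149, 87.7 and 205 at ZT17, while Gss means were 58.4 and 62.1. ZT21 was also the lowest time of the endothelial and stellate cell sums, and ZT9 that of the hepatocyte sum (mean 87736). The part of these in the result was not tested.

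Glutathione reductase, Gsr (ENSMUSG00000031584, chromosome 8 from 33652523 to 33698163, plus strand), had the smoothest daily course. Its normalized values fell from 77.7, 78.9 and 72.6 at ZT1 to 61.3, 63.7 and 59.3 at ZT5, and the livers at ZT9 had 52.2, 57.7 and 49.1. They were 46.4, 52.3 and 48.6 at ZT13, 58.8, 56.3 and 65.0 at ZT17 and 67.2, 61.8 and 65.0 at ZT21. All livers at ZT1 were above all others, and in the order of the means (ZT1, ZT21, ZT5, ZT17, ZT9, ZT13) every further pair of neighbours overlapped.

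The cosine of Gsr had an R-squared of 0.82, with an amplitude of 0.27 ± 0.035 (SE), a peak to trough ratio of 1.46 and a peak at ZT23.98 ± 0.50 h (SE) (limma adjusted p = 2.61e-05). Its peak time lay within the 95% interval of that of Gclc. The fall of 0.31 ± 0.078 (SE) on the log2 scale from ZT1 to ZT5 was called (limma adjusted p = 0.0229), and the step of 0.28 ± 0.078 (SE) from ZT13 to ZT17 was not (limma adjusted p = 0.0676). Without ZT5 replicate 3 the rhythm of Gsr had an amplitude of 0.28 (limma adjusted p = 3.90e-05), but the fall from ZT1 to ZT5 had limma adjusted p = 0.0938. That fall also lost its call without ZT1 replicate 1 (limma adjusted p = 0.0651), ZT1 replicate 2 (limma adjusted p = 0.101) or ZT5 replicate 1 (limma adjusted p = 0.0596), and with one prior variance for all genes (limma adjusted p = 0.0553). Without ZT13 replicate 1 the rhythm kept an amplitude of 0.26 (limma adjusted p = 9.51e-05).

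**Figure D3:**
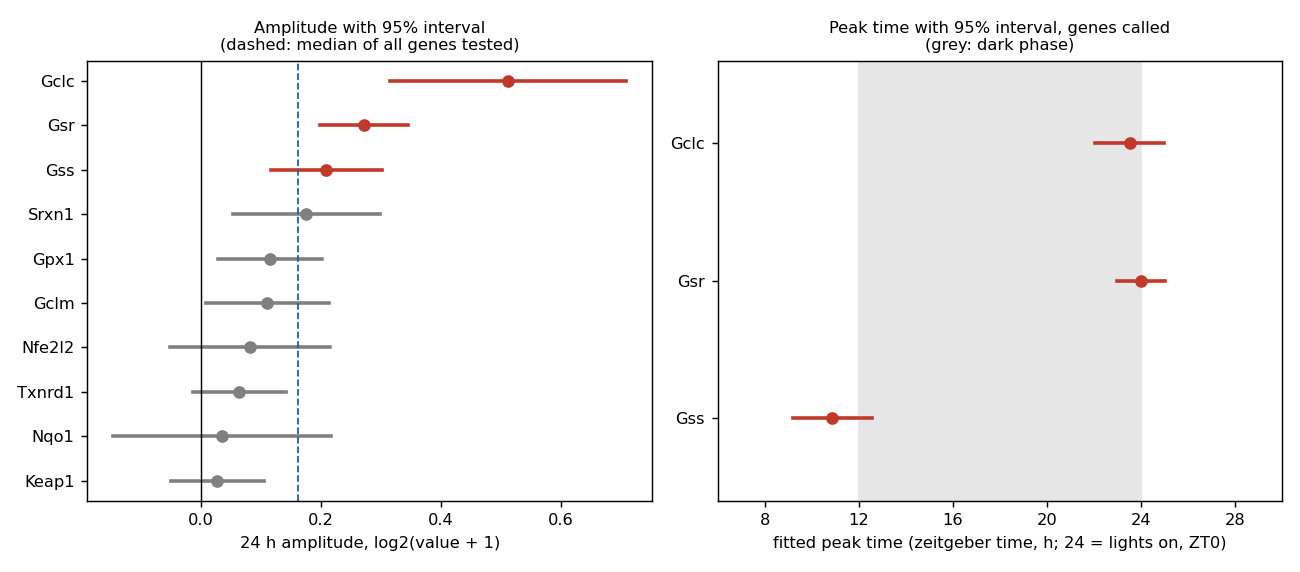
Left, fitted 24 h amplitude on the log2(value + 1) scale with its 95% interval for the 10 genes, in red where the rhythm was called, with a dashed line at 0.162, the median of all genes tested. Right, fitted peak time in zeitgeber hours with its 95% interval for the 3 genes called, at ZT23.51 for Gclc, ZT23.98 for Gsr and ZT10.87 for Gss.

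Gpx1 (ENSMUSG00000063856, chromosome 9 from 108338903 to 108340343, plus strand), the selenoenzyme that spends glutathione on hydrogen peroxide, had no called rhythm. Its normalized values were 1138, 1393 and 1216 at ZT1, 1027, 1138 and 1156 at ZT5 and 1234, 1295 and 1193 at ZT9, and 1162, 1489 and 1206 at ZT13, 1394, 1354 and 1396 at ZT17 and 1362, 1197 and 1197 at ZT21. The livers at ZT17 were all above those at ZT5, while each of these groups overlapped other times. The fit gave an amplitude of 0.12 ± 0.042 (SE) with a peak at ZT16.75 and limma adjusted p = 0.0869, and the unadjusted p was 0.0381. Leaving out ZT1 replicate 2 brought the adjusted p to 0.0355, the only one of the 18 limma fits without a liver in which Gpx1 was called.

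Txnrd1 (ENSMUSG00000020250, chromosome 10 from 82833951 to 82897712, plus strand), the reductase of cytosolic thioredoxin, had time means between 118 ± 9.24 (SD, n = 3) at ZT13 and 138 ± 5.42 (SD, n = 3) at ZT1. The livers at ZT1 (138, 143 and 132) were above those at ZT13 (114, 128 and 111), and each of these groups overlapped other times. Its amplitude was 0.064 ± 0.037 (SE), with limma adjusted p = 0.36 and an upper limit of the 95% interval of 0.14, a peak to trough ratio of 1.22.

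Srxn1 (ENSMUSG00000032802, chromosome 2 from 152105516 to 152111376, plus strand), which restores overoxidized peroxiredoxins, had values of 32.4, 33.2 and 34.3 at ZT1 and of 19.96, 23.4 and 31.0 at ZT13, which did not overlap. The other times lay between 23.5 and 35.3. Its amplitude was 0.18 ± 0.059 (SE), with a peak at ZT1.45 and limma adjusted p = 0.0624. In the 18 limma fits without 1 liver the adjusted p ran from 0.0288 (without ZT13 replicate 3) to 0.18 (without ZT13 replicate 1), and the rhythm was called in 4 of them.

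Nqo1 (ENSMUSG00000003849, chromosome 8 from 107388225 to 107403206, minus strand), a quinone reductase and a common readout of NRF2 activity, was near the low end of what this depth resolves, with 29 to 115 estimated reads per liver. Its values were 2.87, 4.23 and 4.44 at ZT1, 4.34, 3.60 and 4.81 at ZT5, 5.07, 2.75 and 4.08 at ZT9, 3.07, 4.96 and 4.91 at ZT13, 4.70, 2.64 and 4.51 at ZT17 and 4.08, 3.02 and 4.81 at ZT21. All 6 time points overlapped, and the CV between livers of a time point was 14.3% to 29.3%. The amplitude was 0.035 ± 0.087 (SE) with limma adjusted p = 0.94, and it ran from 0.00588 without ZT9 replicate 1 to 0.0937 without ZT9 replicate 2. The 95% interval of the amplitude allows a peak to trough ratio of up to 1.35 for value + 1. At values this low, the ratio of the values themselves would be larger.

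Between neighbouring samplings, 3 of the 60 differences of the 10 genes were called. From ZT1 to ZT5, 2 of the 10 genes (Gclc and Gsr) fell against 3.19% of all genes, and 0 of the 10 rose against 3.12%. From ZT9 to ZT13, 1 gene (Gclm) fell against 5.41% of all genes, and 0 rose against 5.70%. For the other steps 0 of the 10 genes were called by limma, against 1.06% of all genes that rose and 1.25% that fell from ZT5 to ZT9, and 2.08% from ZT13 to ZT17, 2.30% from ZT17 to ZT21 and 0.201% from ZT21 to ZT1 in either direction. At an unadjusted p below 0.05 in the same limma fit, the 10 genes had 3, 2, 1 and 3 such differences in those 4 steps. The share of all genes at this unadjusted threshold was not counted, and the shares above are at the adjusted one. These counts therefore have no background beside them, and no conclusion is drawn from them.

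The surrounding pathway was described with 7 lists of related genes, of which 113 genes were tested. A 24 h rhythm was called by limma for 65 of the 113 genes (57.5%), against 36.8% of all genes tested and 3 of the 10 genes above. JTK called 24 of the 113 genes (21.2%), against 14.1% of all genes. The lists were chosen with earlier results of these data known, so no conclusion is drawn from these shares. Without ZT5 replicate 3, ZT13 replicate 1 or ZT17 replicate 2, limma called 62, 58 and 59 of the 113. From ZT1 to ZT5, 2 of the 113 genes rose and 5 fell, against 3.12% and 3.19% of all genes. From ZT5 to ZT9, 2 rose and 9 fell, against 1.06% and 1.25% of all genes, and from ZT9 to ZT13, 15 rose and 7 fell, against 5.70% and 5.41%. In the 3 other steps 4 rose and 2 fell. Of all 5320 genes with a called rhythm, 20.9% peaked from ZT21 to ZT3, 30.9% from ZT3 to ZT9, 19.6% from ZT9 to ZT15 and 28.6% from ZT15 to ZT21, which is the background for the peak times of each list.

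Of the 28 related genes named below, JTK called 15 and did not call 13, with q from 0.0537 to 0.593 for the latter, namely Nfe2, Maff, Gsta2, Gstm3, Osgin1, H6pd, Pgd, Tkt, Gsto1, Chac1, Cth, Txnip and Secisbp2. The limma call of Pgd was lost without ZT5 replicate 3 (limma adjusted p = 0.0543), and without ZT13 replicate 1 those of Nfe2 (0.0776), Osgin1 (0.0566), Pgd (0.0622) and Chac1 (0.0589) were lost. Without ZT17 replicate 2 those of Nfe2 (0.0635), Pgd (0.0686) and Gsto1 (0.0774) were lost. The lists are described by these counts and were not tested as sets.

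Among 16 regulators and partners of NRF2, 10 had a called rhythm, with a median amplitude of 0.178 over the list, and 5 of the 10 peaked between ZT3 and ZT9. Maff, a small MAF protein that pairs with NRF2, had the largest amplitude of the list with 0.72 ± 0.12 (SE) and a peak at ZT7.01 (limma adjusted p = 0.000356), from a low mean value of 2.50. Bach1, the repressor that competes for the same elements, was at 66.7 ± 14.3 (SD, n = 3) at ZT9 and 28.2 ± 5.44 (SD, n = 3) at ZT17, with a fitted peak at ZT6.42 (limma adjusted p = 0.00148). Bach2, its relative, peaked at ZT1.95 (limma adjusted p = 0.00288) and Nfe2, a relative of NRF2 known from blood cells, at ZT2.52 (limma adjusted p = 0.0358), both at low mean values of 5.91 and 1.07. For Nfe2 the erythroid markers, whose sum ranged from 108 to 674 with its highest time mean at ZT5, are given beside it, and their part in the result was not tested.

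Among 25 NRF2 target genes of conjugation, heme and transport, 14 had a called rhythm, with a median amplitude of 0.295 over the list, and 8 of the 14 peaked between ZT21 and ZT3. Of the others called, 4 peaked between ZT15 and ZT21, glutathione S-transferases among them, and 2 between ZT3 and ZT9. Osgin1, an oxidative stress response gene, was at 401 ± 28.7 (SD, n = 3) at ZT1 and 134 ± 21.1 (SD, n = 3) at ZT13, with an amplitude of 0.50 and limma adjusted p = 0.028. The glutathione S-transferases Gstm4 (amplitude 0.62, peak ZT1.93, limma adjusted p = 1.73e-07), Gstm3 (0.52, ZT0.81, 0.00103) and Gsta2 (0.43, ZT21.10, 0.0116) had their peaks around lights on or before it. These 3 have close paralogs among which reads may be divided, so their single values are uncertain.

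NADPH is the reductant of Gsr, Txnrd1 and Nqo1, and 4 of 10 genes of its supply had a called rhythm, with a median amplitude of 0.151 over the list. G6pdx, the entry enzyme of the pentose phosphate pathway, was at 11.7 ± 2.23 (SD, n = 3) at ZT1 and 5.42 ± 0.0719 (SD, n = 3) at ZT9, with an amplitude of 0.50 ± 0.095 (SE) and a peak at ZT22.01 (limma adjusted p = 0.00115). Pgd, which makes NADPH in the same pathway, had a smaller amplitude of 0.20 and a peak at ZT20.92 (limma adjusted p = 0.0446). H6pd, the enzyme of the endoplasmic reticulum, peaked at ZT1.88 with an amplitude of 0.29 (limma adjusted p = 0.00124), and Tkt, of the non-oxidative branch, at ZT16.80 with 0.20 (limma adjusted p = 0.00363).

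Among 13 genes of glutathione peroxidases and thiol transfer, 7 had a called rhythm, of which 5 peaked between ZT15 and ZT21, and the median amplitude was 0.142. Glrx, a glutaredoxin that removes glutathione from proteins, was at 49.6 ± 1.35 (SD, n = 3) at ZT13 and at 26.003 ± 2.36 (SD, n = 3) at ZT5, with a fitted peak at ZT15.66 (limma adjusted p = 3.34e-08). Its mitochondrial relative Glrx5 peaked at ZT14.52 (limma adjusted p = 0.000111) and Gsto1, an omega class transferase, at ZT16.83 (limma adjusted p = 0.0303). Glo1, the glyoxalase that uses glutathione to clear methylglyoxal, had another timing, with 517 ± 35.8 (SD, n = 3) at ZT1, 268 ± 12.9 (SD, n = 3) at ZT13 and a peak at ZT23.48 (limma adjusted p = 6.66e-07), a time within the 95% intervals of the peaks of Gclc and Gsr.

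Of 13 genes of glutathione breakdown and precursor supply, 9 had a called rhythm, with a median amplitude of 0.18 over the list. Cbs and Cth, which lead from homocysteine to cysteine, the amino acid that limits glutathione synthesis, peaked at ZT1.13 (amplitude 0.61, limma adjusted p = 1.96e-06) and ZT22.92 (amplitude 0.38, limma adjusted p = 0.0016). Chac1, which degrades glutathione inside the cell, peaked at ZT3.31 from a low mean value of 2.39 (limma adjusted p = 0.0301), and Ggt6, of the gamma-glutamyltransferase family, at ZT18.04 (limma adjusted p = 1.92e-05).

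Of 19 thioredoxins, peroxiredoxins and enzymes of reactive oxygen, 12 had a called rhythm, of which 6 peaked between ZT15 and ZT21, and the median amplitude was 0.154. Txnip, the inhibitor of thioredoxin, had the largest amplitude of the list with 0.66 ± 0.12 (SE) and peaked at ZT7.68 (limma adjusted p = 0.000814). Txnrd3 peaked at ZT5.03 (limma adjusted p = 0.000227), whereas its cytosolic relative Txnrd1 had no called rhythm, and the difference between them was not tested. Txn2, the mitochondrial thioredoxin, and Sod1, the cytosolic superoxide dismutase, had amplitudes of 0.22 and 0.21 with peaks at ZT15.52 and ZT17.31 (limma adjusted p = 0.000103 and 0.00018).

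Of 17 genes of selenoprotein synthesis and other selenoproteins, the group to which Gpx1 and Txnrd1 belong as products, 9 had a called rhythm, of which 5 peaked between ZT9 and ZT15 and 0 between ZT21 and ZT3, with a median amplitude of 0.142 over the list. Dio1, the deiodinase of liver, was at 172 ± 6.25 (SD, n = 3) at ZT13 and 62.0 ± 15.2 (SD, n = 3) at ZT5, an amplitude of 0.76 ± 0.082 (SE) with limma adjusted p = 2.81e-06. Selo peaked at ZT5.12, Trnau1ap, which binds the tRNA of selenocysteine, at ZT9.32 and Secisbp2, which binds the element that directs selenocysteine insertion, at ZT16.40 (limma adjusted p = 7.18e-05, 0.00489 and 0.00713).

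**Figure D4:**
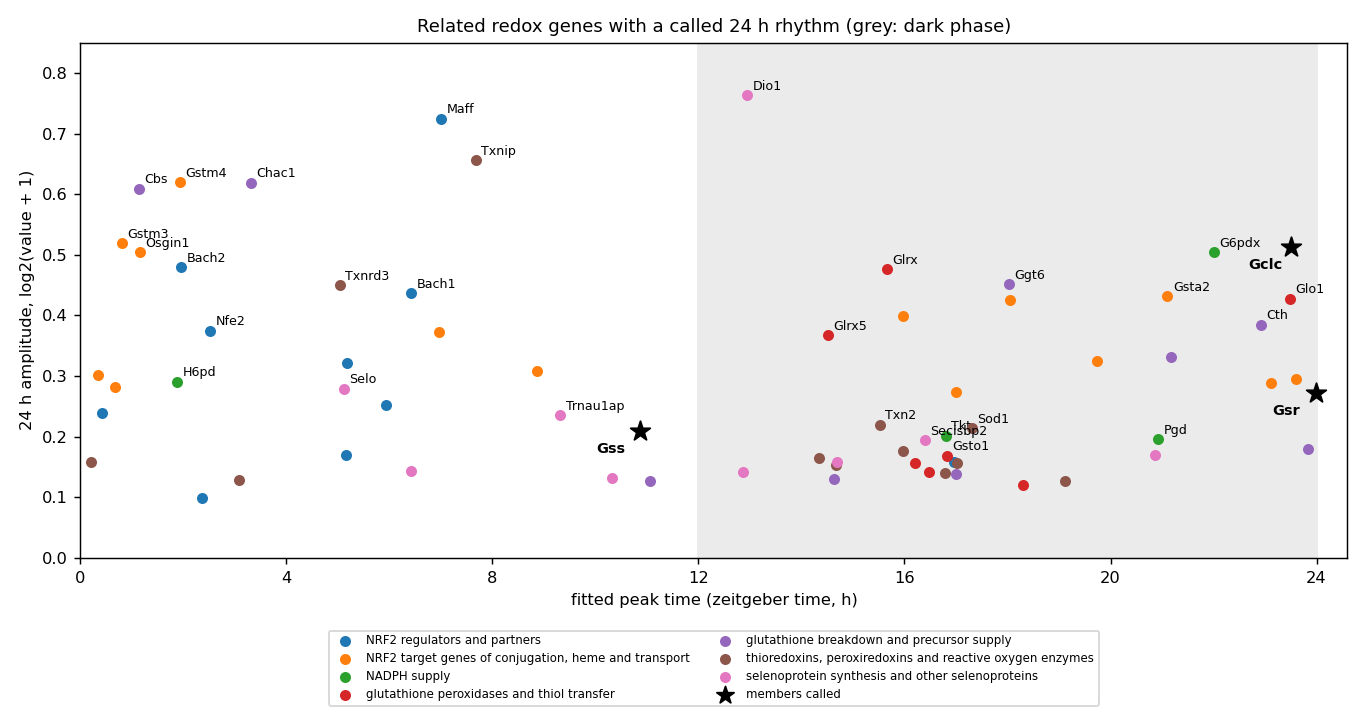
Fitted 24 h amplitude on the log2(value + 1) scale against fitted peak time in zeitgeber hours for the 65 related genes with a called rhythm, coloured by list, with Gclc, Gsr and Gss as stars. Of the 14 called NRF2 target genes 8 lie between ZT21 and ZT3, and 5 of the 7 called genes of peroxidases and thiol transfer lie between ZT15 and ZT21.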

How the data were processed

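The deposited table holds 1 column per liver. By the submitters' notes and the study's methods, the authors removed adapters with cutadapt, estimated counts per gene with RSEM 1.2.20 on GRCm38 (Ensembl gene-build 84) and normalized them with limma. The unit of the deposited table is therefore a linear signal, in which 0.5 reads were added to each estimated count before division by an effective library size in units of 1000000 reads. Only 39.1% to 47.9% of values per liver were whole reads within 0.001 reads, so no count test was used. Whether strand was used in counting is not given in the sources used here.

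Values were analysed as log2(value + 1) with limma 3.58.1 (R 4.3.3, trend = TRUE) over 14449 genes above the lowest value in at least 1 liver, with Benjamini–Hochberg adjustment over all of them and calls below 0.05. Fits were a 24 h cosine and sine, 24 h and 12 h terms together, and 1 mean per time point with 6 contrasts of neighbouring times. The amplitude is the log2 distance from the fitted mean to the peak, and its SE and 95% interval, like those of the peak time, come from the delta method, so that intervals of small amplitudes extend below 0. Peak to trough ratios are of value + 1, so the ratio of the values themselves is larger, mainly where values are low. JTK was written in Python 3.11.15 (numpy 2.4.6, scipy 1.17.1, pandas 2.3.3) with the exact null for 6 groups of 3, Bonferroni over 18 orders, two-sided. That null takes the 6 groups as separate, although some orders hold time points of equal cosine, which were joined only in an alternative setting. Joining them raised the JTK calls over all genes from 2039 to 3237, so the main setting is the stricter one. CircaN was not rebuilt. The methods were tested on simulated data. Coordinates and exons are from GENCODE M21. In the fit with 1 mean per time point, p-values rest on the spread between livers of a time point, moderated over all genes. In the cosine fits the residual also holds the departure of the time means from the fitted curve. JTK uses ranks only. Replicates were numbered in accession order.

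The 10 genes and the lists of related genes were chosen with earlier results of these data known. Of each list, up to 4 genes with the largest amplitude among those called are named. Acss2, Gm17494 and Gm16754, which overlap 3 of the 10 genes, were named after their values were seen. Of 28 selenoprotein symbols, which include older and newer symbols of some genes, 17 were in the table. Alternatives were other pseudocounts, a filter on low values, another scaling, one prior variance, linear values, other JTK settings and leaving out each liver.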

Additional observations from a re-analysis of the deposited data

How the results depend on the processing

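The 24 h calls of Gclc, Gsr and Gss held in all 7 alternative settings and in all 18 fits without 1 liver. With a period of 24 h alone, JTK called 1 of the 10 genes in place of 2, namely Gsr (q = 0.00499), while Gclc lost its call (q = 0.0554). With time points of equal cosine as 1 group, JTK called 3237 of all genes in place of 2039, Gss among them (q = 0.0397). With 1 liver left out, the number of the 10 genes called was 3 to 4 for the 24 h rhythm, 1 to 2 for JTK and 3 to 4 for any difference among time points, while 1 to 5 steps of the 10 genes were called. Over all genes, JTK called 1266 to 1913 (fewest without ZT5 replicate 2) and the 12 h term 99 to 193 (fewest without ZT1 replicate 2). Steps of the 10 genes called were 1 without ZT1 replicate 2 or ZT5 replicate 3 and 5 without ZT13 replicate 2. Gss was called by JTK without ZT13 replicate 1 (q = 0.0449). The cause of these changes was not tested. None of the 3 called steps reversed its direction in these alternatives. No paired analysis was possible because each liver came from a different mouse, sampled at a single time. The replicate numbers used here link no livers across time points. Depth limits Nqo1 most, at 29 to 115 estimated reads per liver.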
